A study of Schizosaccharomyces pombe with 6 samples.

Results

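Tf2 is the family of full-length LTR retrotransposons of the fission yeast Schizosaccharomyces pombe, and 10 of its copies were followed here in RNA-seq libraries of growing cells. The copies were taken by identifier from the count tables, where they are 10 of 7269 counted features. They are Tf2-1 (SPAC9.04.1), Tf2-2 (SPAC167.08.1), Tf2-3 (SPAC2E1P3.03c.1), Tf2-4 (SPAC26A3.13c.1), Tf2-6 (SPAC27E2.08.1), Tf2-7 (SPAC13D1.01c.1), Tf2-8 (SPAC19D5.09c.1), Tf2-9 (SPBC9B6.02c.1), Tf2-11 (SPBC1289.17.1) and Tf2-12 (SPCC1020.14.1). The annotation places 7 of them on chromosome I, 2 on chromosome II and 1 on chromosome III. It names 13 Tf2 genes in all, and the 3 others (Tf2-5, Tf2-10 and Tf2-13) serve only for comparison. Wild-type haploid cells (wt, 3 libraries) were compared with haploid cells of genotype sad1.2 csi1Δ (a mutant allele of sad1 and a deletion of csi1, called the mutant here, 3 libraries). Both genotypes were grown vegetatively in rich medium at 30 °C, in asynchronous cultures of 30 mL at an optical density of 0.5, and the labels name no drug or nutrient change for either. The libraries of a genotype are described as biological replicates, and each was made from 5 µg of total RNA by oligo-dT selection. A culture is a mixture of all cell cycle stages, so more transcript in every cell and a strong signal in a few cells cannot be told apart in these bulk libraries.

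A Tf2 element has 1 long open reading frame that encodes Gag, protease, reverse transcriptase and integrase, flanked by 2 long terminal repeats that hold its promoter and transcript ends. Fission yeast keeps the family at a low level in growing cells. Known repressors are the CENP-B homologues Cbp1, Cbh1 and Cbh2, the HIRA histone chaperone, histone deacetylases, the Set1 complex and nuclear RNA degradation, while the sterol-sensing transcription factor Sre1 activates the elements when oxygen is low. Sad1 is the SUN-domain protein of the inner nuclear membrane at the spindle pole body, and Csi1 links centromeres to it. The series title names centromere position as the study's subject.

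Library totals ran from 19074531 to 19951875 counts. The deleted gene csi1 was read first: it had 1271, 1142 and 1225 counts in wt replicates 1 to 3 and 210, 204 and 63 in the mutant replicates, so the genotypes did not overlap but no mutant library was at 0. It fell by 3.08 on the log2 scale (SE 0.382, quasi-likelihood test of edgeR, adjusted p = 0.0188). The gene sad1 itself had 81.8 ± 1.66 CPM (counts scaled to a library size of 1000000) in wt and 153 ± 6.81 in the mutant (SD, n = 3 each; a rise of 0.90 on the log2 scale, SE 0.0728, edgeR adjusted p = 0.00639). Leaving out a single library could bring the calls over all features to 0, and these 2 genes also lost their calls: csi1 without wt replicate 1 or 3 or mutant replicate 1 or 2 (adjusted p 0.0759, 0.0948, 0.0777 and 0.102) and sad1 without wt replicate 1 or 3 or mutant replicate 2 (0.0507, 0.0663 and 0.0641). Deviations from the genotype means, taken over all tested features, were shared by wt replicate 2 and mutant replicate 3 (r = 0.66), which stand apart from the other 4 libraries. Values without both are given beside the results below. That fit called 20.5% of its 5008 tested features (716 higher and 309 lower), so a call in it is read against that share.

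How far the copies can be told apart was measured on the reference assembly ASM294v3, where the annotated gene of 8 copies is 4002 bases long, that of Tf2-2 is 4117 and that of Tf2-7 is 4086. Among the 45 pairs of copies the lowest identity was 99.6%. Tf2-1, Tf2-4 and Tf2-9 have the same sequence, and so do Tf2-3, Tf2-6 and Tf2-12 (and Tf2-5 outside the 10). The longer gene of Tf2-2 holds the whole sequence of Tf2-1, Tf2-4 and Tf2-9 without a difference, and Tf2-7 that of Tf2-8. Of all stretches of 100 bases within the gene, 17.96% in Tf2-11 (701 of 3903) and 1.89% in Tf2-2 (76 of 4018) occur nowhere else in the genome, and the 8 other copies have none. In Tf2-11 these stretches lie between bases 241 and 2754 of the gene, and in Tf2-2 they cover its last bases, from 3943 to 4117. None of those of Tf2-2 lies within the sequence it shares with Tf2-1, Tf2-4 and Tf2-9. Tf2-11, which differs from each of the other 9 copies at 10 to 16 positions, is therefore the copy whose reads can best be placed. No stretch of 100 or 150 bases tells the 8 others from every other copy, so counts under their names may hold reads of the family. The same holds for Tf2-2 outside its last bases. The reference also annotates 22 genes on the opposite strand of the 10 copies, from 1 to 3 for each, and 0 of them have a row in the count tables. Whether the counting used strand is not given in the sources used here, so sense and antisense reads cannot be told apart.

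Copies with the same sequence did not have the same counts. Tf2-6 had between 18 and 69 counts in a library, its sequence twin Tf2-3 between 0 and 5, and Tf2-12, of the same sequence again, 0 in 5 libraries and 1 in mutant replicate 2. Tf2-4 had 114 counts over the 6 libraries and the identical Tf2-1 and Tf2-9 had 37 and 1. How reads that match several copies were treated is not given in the sources used here, and its part in these differences was not tested.

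**Figure D1:**
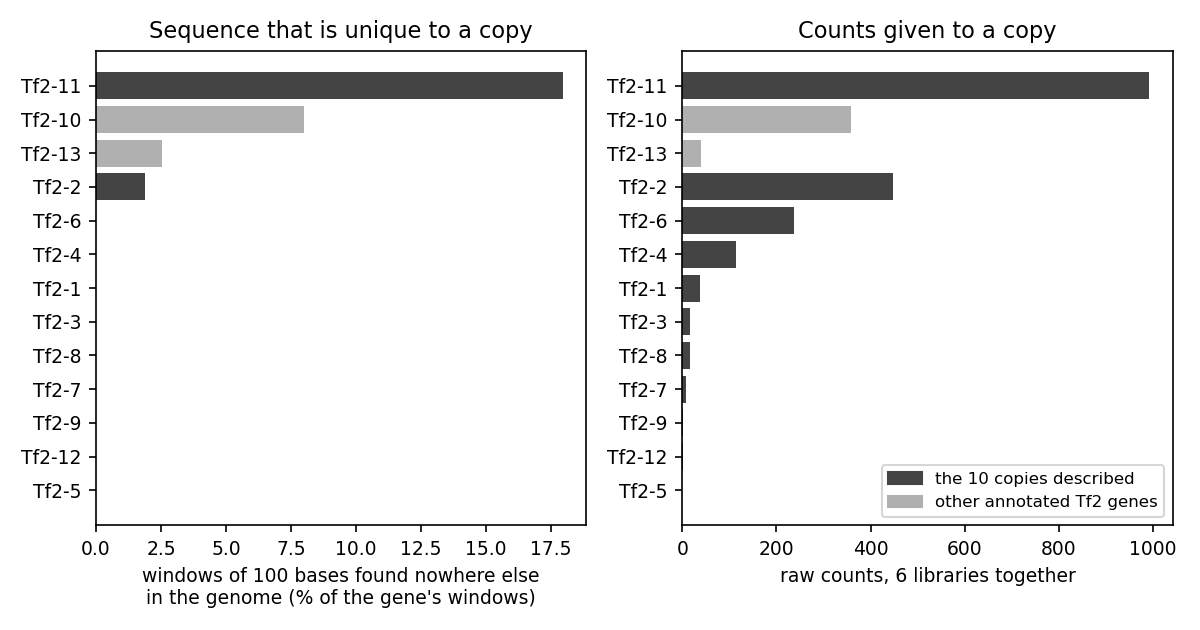
Share of 100-base stretches found nowhere else in the ASM294v3 genome, in percent of the stretches in the gene (left), and raw counts over the 6 libraries together (right), for the 13 annotated Tf2 genes; dark bars are the 10 copies described and light bars the 3 others. Tf2-11 has the highest bar in both panels (17.96% and 992 counts), while Tf2-6 (237 counts) and Tf2-4 (114 counts) have counts without any stretch of their own.

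Tf2 transcript counts were low in wt cells and higher in the mutant. Summed over the 10 copies there were 151, 202 and 144 counts in wt replicates 1 to 3 and 565, 321 and 487 in mutant replicates 1 to 3. Every mutant library was above every wt library, with mutant replicate 2 the lowest mutant and wt replicate 2 the highest wt library. After scaling by library size the sum was 8.88 ± 2.31 CPM in wt and 22.1 ± 5.17 CPM in the mutant (SD, n = 3 each), a ratio of 2.48. Between single libraries the ratio of a mutant to a wt sum ran from 1.39 to 3.37. No test is given for the sum, because its members were chosen with earlier results of these data known. The ratio did not rest on the counts under 1 name. It was 2.29 without the counts under Tf2-11, 2.54 over the 8 copies that have no stretch of their own and 2.36 over all 13 annotated Tf2 genes. Counts under a name may hold reads of other copies, so these ratios cannot tell how many copies the signal came from. Nor did the ratio rest on the 2 libraries that stand apart: its log2 value of 1.31 became 1.45 without wt replicate 2 and mutant replicate 3.

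**Figure D2:**
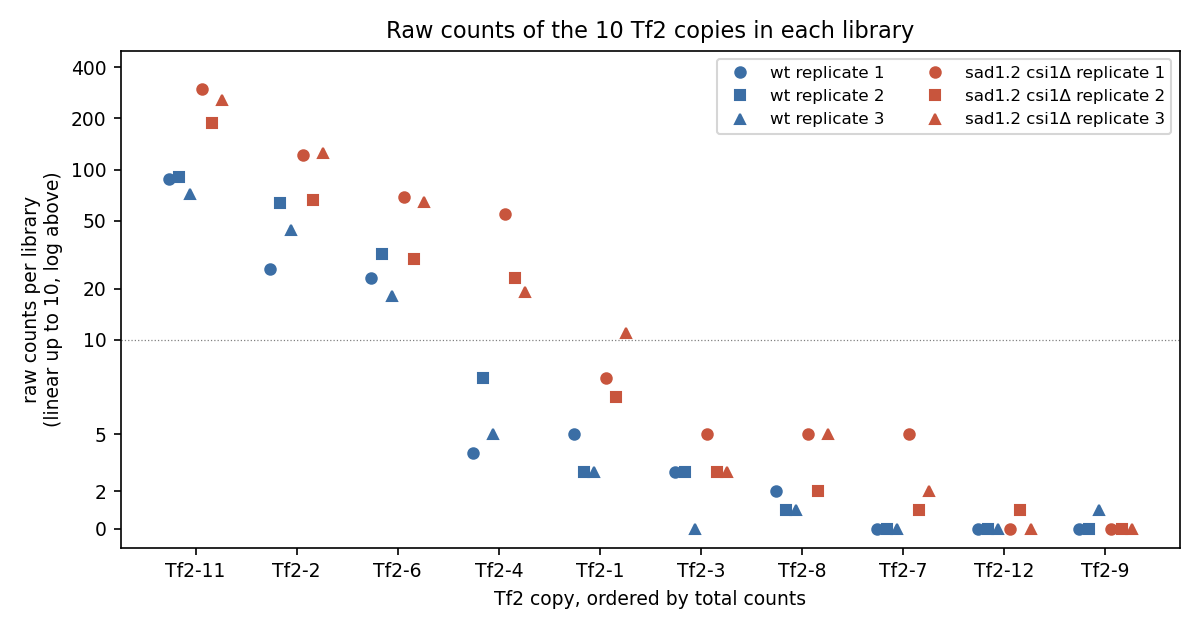
Raw counts (vertical axis, linear up to the dotted line at 10 and logarithmic above it) of the 10 Tf2 copies (horizontal axis, ordered by total counts) in each of the 3 wt libraries (blue) and the 3 sad1.2 csi1Δ libraries (red); each point is 1 library and its shape is the replicate number. The mutant points of Tf2-11 (188 to 296) and of Tf2-4 (19 to 55) lie above all their wt points (72 to 91 and 4 to 8), while those of Tf2-2 and Tf2-6 are close to or below the highest wt point in mutant replicate 2.

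Tf2-11, the copy with the most sequence of its own, had the most counts and was the one that passed the test. It had 88, 91 and 72 counts in wt replicates 1 to 3 and 296, 188 and 257 counts in mutant replicates 1 to 3. The groups did not overlap, and mutant replicate 2 was the lowest of the mutant libraries. Its level was 4.46 ± 0.730 CPM in wt and 11.9 ± 2.16 CPM in the mutant (SD, n = 3 each), and it rose by 1.42 on the log2 scale (SE 0.214, edgeR quasi-likelihood test with Benjamini-Hochberg adjustment over all 4941 tested features, adjusted p = 0.0295). It was the 1 of the 10 copies that passed in that test, and 0 passed in the lower direction. Over all features of that test 2.41% were called, 2.29% higher and 0.121% lower. Without wt replicate 2 and mutant replicate 3, Tf2-2, Tf2-4 and Tf2-11 passed, in a fit that called 20.5% of all its tested features. The adjusted p of Tf2-11 was 0.0072 without wt replicate 2 and mutant replicate 3 together, but missed the threshold when wt replicate 1 (0.128), wt replicate 3 (0.157), mutant replicate 1 (0.106) or mutant replicate 2 (0.102) was left out, where the log2 fold change lay between 1.31 and 1.56. In those 4 fits edgeR called at most 17 features of any kind.

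Of the other 9 copies, 3 had enough counts to be tested (Tf2-2, Tf2-4 and Tf2-6), and all 3 had positive log2 fold changes that did not pass with all 6 libraries. Tf2-2 had 26, 64 and 44 counts in wt libraries and 122, 66 and 125 in mutant ones. The genotypes came close in raw counts without overlap and overlapped in CPM (3.66 in wt replicate 2 and 3.31 in mutant replicate 2). The edgeR log2 fold change of 1.07 (SE 0.413) had an adjusted p of 0.190, and of 0.0423 without those 2 libraries. Tf2-6 had 23, 32 and 18 counts in wt libraries and 69, 30 and 65 in mutant ones. Here mutant replicate 2 lay within the wt range, and the edgeR log2 fold change of 1.014 (SE 0.402) had an adjusted p of 0.201 (0.0859 without wt replicate 2 and mutant replicate 3).

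Tf2-4 was tested on few counts, and it passed the filter on low values only through the mutant libraries, where it is higher. Its counts were 4, 8 and 5 in wt libraries and 55, 23 and 19 in mutant ones, and the groups did not overlap. The level was 0.306 ± 0.134 CPM in wt and 1.53 ± 0.808 CPM in the mutant (SD, n = 3 each; log2 fold change 2.32, SE 0.529, edgeR adjusted p = 0.0671). DESeq2 gave it an adjusted p of 0.0101, and edgeR one of 0.0141 without wt replicate 2 and mutant replicate 3, so its call depends on the tool and on the libraries. Because of the way it entered the test, its values are a description. DESeq2 called 2 of the 10 copies, Tf2-4 and Tf2-11, against 6.56% of all features called higher by that tool.

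The remaining 6 copies were too low to be tested, with at most 11 counts in any library. Tf2-1 had 5, 3 and 3 counts in wt libraries against 8, 7 and 11, a small difference without overlap. Tf2-3 (3, 3 and 0 against 5, 3 and 3) and Tf2-8 (2, 1 and 1 against 5, 2 and 5) overlapped between the genotypes. Tf2-7 was at 0 in all 3 wt libraries and had 5, 1 and 2 counts in the mutant. A count of 0 over the 3 wt libraries together allows up to 3 counts (0.0530 CPM), and the pooled mutant level was 2.43-fold above that limit. The error of the 8 mutant counts is left out of this value, so it is not a lower bound. In edgeR without an expression filter the adjusted p of Tf2-7 was 0.183 (log2 fold change 4.40, SE 1.51). Tf2-9 had 1 count, in wt replicate 3, and Tf2-12 had 1 count, in mutant replicate 2, so neither allows a comparison at this depth. Over all 10 copies, tested or not, 9 had a higher mean CPM in the mutant and Tf2-9 a lower one. A positive log2 fold change was found in 50.7% of all tested features and in 81.9% of those below 16 CPM outside the family. The 10 copies all lie below that level, so their direction is read against the second share. Both shares are over tested features, whereas 6 of the 10 copies were not tested.

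Per kb of annotated gene, the order of the counts under the names of the 4 tested copies was the same in both genotypes, and the 6 others were too low to be ordered. In wt it ran from Tf2-11 (1.11 CPM per kb) through Tf2-2 (0.587) and Tf2-6 (0.327) to Tf2-4 (0.0765), and in the mutant from 2.98 through 1.23 and 0.658 to 0.381 CPM per kb. In wt the libraries of Tf2-11 and Tf2-2 did not overlap, nor did those of Tf2-6 and Tf2-4, while Tf2-2 and Tf2-6 overlapped. In the mutant Tf2-11 again stood clear of Tf2-2, and the next 2 neighbours in the order overlapped. The whole gene length was used, although the copies differ in how much sequence they have to themselves. Counts under a name may hold reads of other copies, so this is an order of assigned reads and need not be that of transcript levels.

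The make-up of the family signal was similar in the 2 genotypes for the leading copy. Tf2-11 held 58.3% of the Tf2 counts in wt replicate 1 (95% Wilson interval 50.3% to 65.8%), 45.0% in wt replicate 2 (38.3% to 51.9%) and 50.0% in wt replicate 3 (41.9% to 58.1%). In mutant replicates 1 to 3 it held 52.4% (48.3% to 56.5%), 58.6% (53.1% to 63.8%) and 52.8% (48.3% to 57.2%). The shares of the 2 genotypes overlap, and these intervals cover counting error only. Tf2-4 went from 17 of 497 Tf2 counts in wt (3.42%) to 97 of 1373 in the mutant (7.06%), with the highest share, 9.73%, in mutant replicate 1 and a share of 3.90% in mutant replicate 3 that lies within the wt range.

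Of the Tf2 genes outside the 10, Tf2-10 has 312 of 3902 stretches of 100 bases to itself. It had 29, 43 and 22 counts in wt libraries against 98, 77 and 90 in mutant ones, with no overlap (log2 fold change 1.34, SE 0.310, edgeR adjusted p = 0.0692; 0.00889 without wt replicate 2 and mutant replicate 3, and 0.00428 by DESeq2). Tf2-13 had 34, 2 and 1 counts in wt libraries against 2, 1 and 0, so its wt total rests on wt replicate 1. Tf2-5 was listed at 0 in all 6 libraries.

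Weakly expressed features as a class were also higher in the mutant, and the Tf2 values stand beside that shift. The 1010 tested features below 16 CPM outside the family had a median log2 fold change of 0.41, and 81.9% of them were positive, against a median of 0.00 over all tested features. In this class 5.54% were called higher and in 36.0% every mutant library was above every wt library, compared with 16.7% of all tested features. Tf2-11 and Tf2-4 were without overlap in CPM, and Tf2-4 was tested only because its mutant libraries passed the filter, so no share of the tested copies is set beside these.

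The order of the mutant libraries was not the same for Tf2 and for the weak features. Relative to the wt mean the summed Tf2 log2 CPM stood at 1.53, 0.89 and 1.52 in mutant replicates 1 to 3, while the median of the weak features stood at 0.51, 0.38 and 0.22. Mutant replicate 3 was thus the lowest of the mutant libraries for the weak features and level with the highest for Tf2. In wt replicates 1 to 3 the Tf2 sum stood at −0.19, 0.41 and −0.22 and the weak features at −0.01, 0.01 and 0.02. The weak features carry a pseudocount of 0.5 CPM and the Tf2 sum carries none, so the sizes of these values are not like for like. The part of the shared shift in the Tf2 values was not tested.

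**Figure D3:**
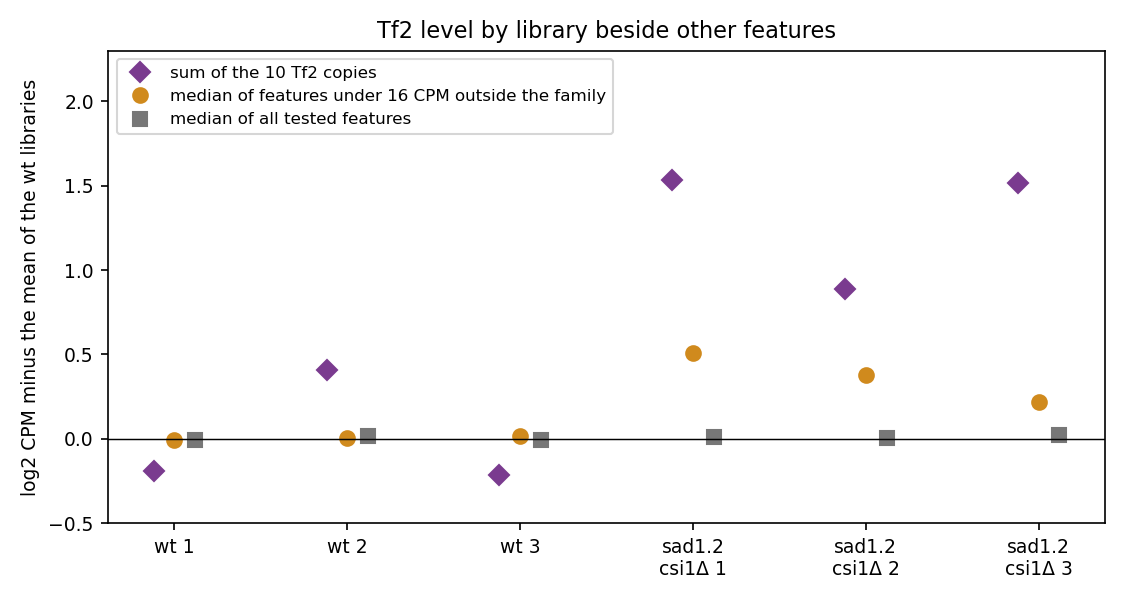
Log2 CPM minus the mean of the wt libraries (vertical axis) in each of the 6 libraries (horizontal axis), for the sum of the 10 Tf2 copies (diamonds), the median of the 1010 tested features below 16 CPM outside the family (circles) and the median of all tested features (squares). The Tf2 sum lies above the weak features in all 3 mutant libraries (1.53, 0.89 and 1.52 against 0.51, 0.38 and 0.22), and all tested features stay near 0. A pseudocount of 0.5 CPM, which shrinks differences at low levels, was used for the single features and not for the Tf2 sum.

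Among listed genes of meiosis and sporulation, a state that haploid cultures could hold in part, those with counts had higher mutant means. Transcript levels in bulk libraries do not show whether any cells were in that state. The summed level of the markers was 28.1 to 44.4 CPM in wt and 52.4 to 107 CPM in the mutant. The largest part of that sum was isp3, which overlapped between the genotypes. It had 21.8, 13.3 and 22.7 CPM in wt replicates 1 to 3 and 50.6, 37.2 and 20.9 in mutant replicates 1 to 3. Of 12 markers 7 were listed at 0 in all 6 libraries (rec12, dmc1, spo4, spo6, mde2, meu14 and num1), and of the 5 tested 0 passed with edgeR. All 5 had an unadjusted p under 0.05 there, and DESeq2 called 2, against 6.56% of all features called higher by that tool. Without wt replicate 2 and mutant replicate 3 together 4 of the 5 passed, each higher, where 716 of all 5008 tested features were called higher. Without mutant replicate 3 alone 1 passed. Apart from isp3, the tested markers lie below 16 CPM. In that class outside the family 81.9% of features were positive, and in 36.0% every mutant library was above every wt library. The largest log2 fold change belonged to mei4, the forkhead transcription factor of middle meiosis, with 4.98 ± 0.720 CPM in wt and 14.6 ± 6.28 in the mutant (SD, n = 3 each; log2 fold change 1.55, edgeR adjusted p = 0.0571), and the next to spo5, a sporulation RNA-binding protein gene (1.16, adjusted p = 0.111). Mutant replicate 3 had the lowest marker sum of the mutant libraries. The part of the markers in the Tf2 values was not tested.

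Tf elements of fission yeast tend to insert near promoters of protein-coding genes, so the genes on either side of each copy were read next. The 10 copies have 18 flanking protein-coding genes, since Tf2-7 and Tf2-8 are neighbours and share theirs, and 17 were tested. Of the 17, 1 was called higher and 0 lower, against 2.29% and 0.121% of all tested features. Without wt replicate 2 and mutant replicate 3, all 18 were tested and 6 were called (33.3%), each of them higher. In that fit 716 of all 5008 tested features were called higher, and 20.5% were called in either direction. With all libraries their median log2 fold change was 0.12, with 12 positive and 5 negative values. The flanking gene not tested, amt3 downstream of Tf2-3, encodes an ammonium transporter and had 0, 1 and 0 counts in wt libraries against 18, 12 and 4; it was named after its values were seen.

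The flanking gene that rose was SPBC1289.14, annotated as an adducin, which lies directly upstream of Tf2-11 on the same strand. It had 114, 29 and 91 counts in wt libraries against 767, 546 and 374 in mutant ones, with no overlap. The level went from 4.05 ± 2.13 to 26.9 ± 7.55 CPM (SD, n = 3 each), a rise of 2.72 on the log2 scale (SE 0.434, edgeR adjusted p = 0.0344). On the downstream side of Tf2-11, pfl5, a cell surface flocculin gene, had 475, 257 and 426 counts in wt libraries against 699, 542 and 474. Its lowest mutant count was just below the highest wt count, though the groups did not overlap in CPM, and its edgeR value of 0.44 (SE 0.202) did not pass (adjusted p = 0.252).

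The order of the libraries differed between Tf2-11 and its upstream neighbour: the gene was lowest in mutant replicate 3 among the mutant libraries and lowest in wt replicate 2 among the wt libraries, whereas Tf2-11 was lowest in mutant replicate 2 and wt replicate 3. The call of SPBC1289.14 was lost without wt replicates 1 or 3 or mutant replicates 1 or 2 (adjusted p 0.0942, 0.164, 0.135 and 0.132) and among protein-coding genes only (0.0531). It held without wt replicate 2 and mutant replicate 3 together (0.000418). The other 16 tested flanking genes had log2 fold changes between −0.23 and 0.60 and a lowest adjusted p of 0.112.

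**Figure D4:**
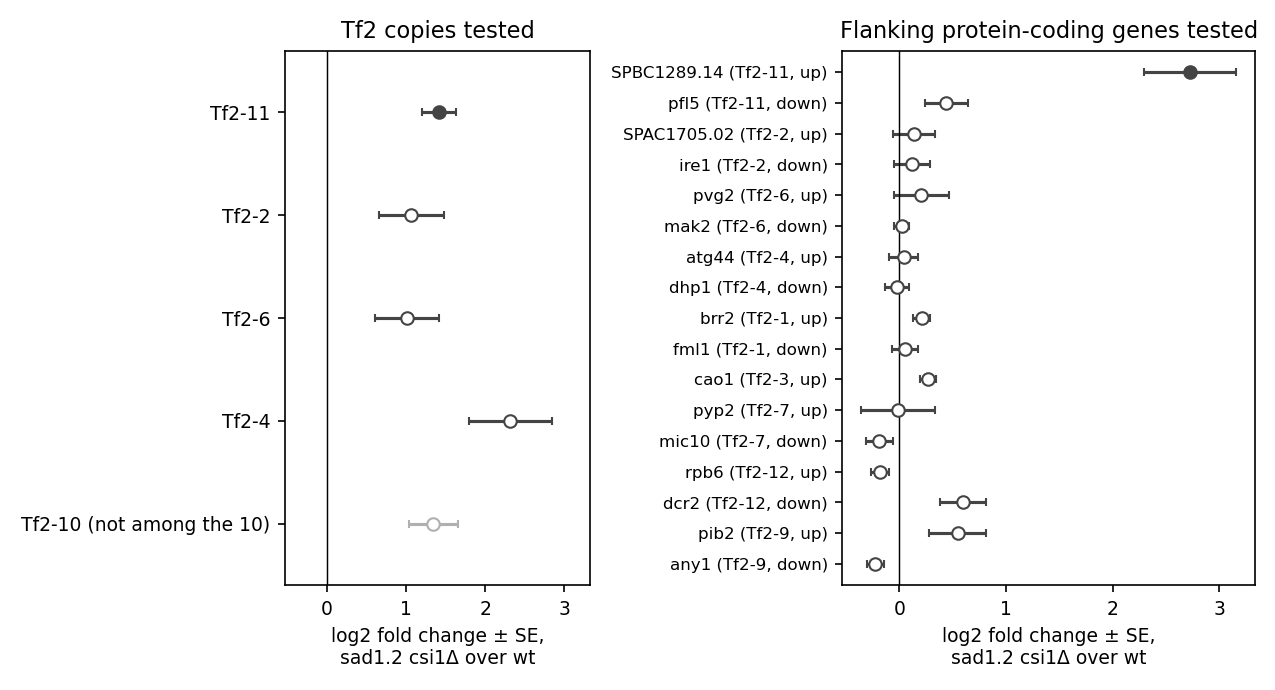
Log2 fold change of sad1.2 csi1Δ over wt with its standard error (horizontal axes, edgeR, 3 libraries per genotype) for the tested Tf2 copies and Tf2-10 (left) and for the 17 tested protein-coding genes that flank a copy (right, with the copy and the side it lies on); filled points passed an adjusted p of 0.05. Every tested copy is above 1, and apart from SPBC1289.14 at 2.72 the flanking genes lie between −0.23 and 0.60.

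With all 6 libraries, genes of the known Tf2 regulators, and the sterol targets listed with Sre1, did not pass the test in either direction. The 7 lists hold 55 genes, of which 51 were tested and 0 were called with edgeR (10 had an unadjusted p under 0.05, and DESeq2 called 2), and 4 (cbh1, clr3, prw1 and erg6) were listed at 0 in all 6 libraries. Without wt replicate 2 and mutant replicate 3, 9 of the 51 passed, 5 higher and 4 lower (17.6%, against 20.5% of all features in that fit). Among the named genes these were mit1 (0.0246), cph1 (0.0282) and ago1 (0.0263), which rose in that fit, and asf1 (0.0390), pab2 (0.0271) and ofd1 (0.0272), which fell. The tables list 530 of 5106 protein-coding features at 0 throughout, so a 0 here is not a measure of absence. The 51 log2 fold changes ran from −0.31 to 0.50 with a median of −0.07, 18 positive and 33 negative.

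Among the repressors, the CENP-B homologues cbp1 and cbh2 had log2 fold changes of −0.17 (SE 0.154) and 0.11 (SE 0.112), with adjusted p of 0.578 and 0.624 (edgeR). In the HIRA list, 1 of 5 values was positive, and the histone chaperone gene asf1 was the nearest to the threshold (−0.23, SE 0.0708, edgeR adjusted p = 0.136), before the HIRA subunit gene slm9 (−0.12, adjusted p = 0.419). The subunits of the SHREC and Clr6 deacetylase complexes had 6 positive and 3 negative values. The largest of all 51 was mit1, the remodelling ATPase of SHREC, with 30.4 ± 1.83 CPM in wt and 43.2 ± 6.06 in the mutant (SD, n = 3 each; log2 fold change 0.50, edgeR adjusted p = 0.0868). The Clr6 subunit gene cph1 had a log2 fold change of 0.30 and the smallest adjusted p of the 51, 0.0853.

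In the Set1 complex, whose catalytic subunit methylates histone H3 on lysine, 2 of 8 values were positive, and swd2 and ash2 stood at −0.25 and −0.30 (edgeR adjusted p = 0.359 and 0.388). The Fun30 remodellers fft3 and fft1 had values of −0.16 and −0.03 (adjusted p = 0.302 and 0.960). Of the 11 RNA elimination and RNAi genes, 4 were positive. The poly(A)-binding protein gene pab2 stood at −0.31 and ago1, the Argonaute, at 0.21 (edgeR adjusted p = 0.172 and 0.198). In the Sre1 pathway and its sterol targets, 3 of 13 values were positive: the E3 ligase gene dsc1 stood at 0.18 and ofd1, the negative regulator of Sre1, at −0.31 (edgeR adjusted p = 0.210 and 0.216).

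**Figure D5:**
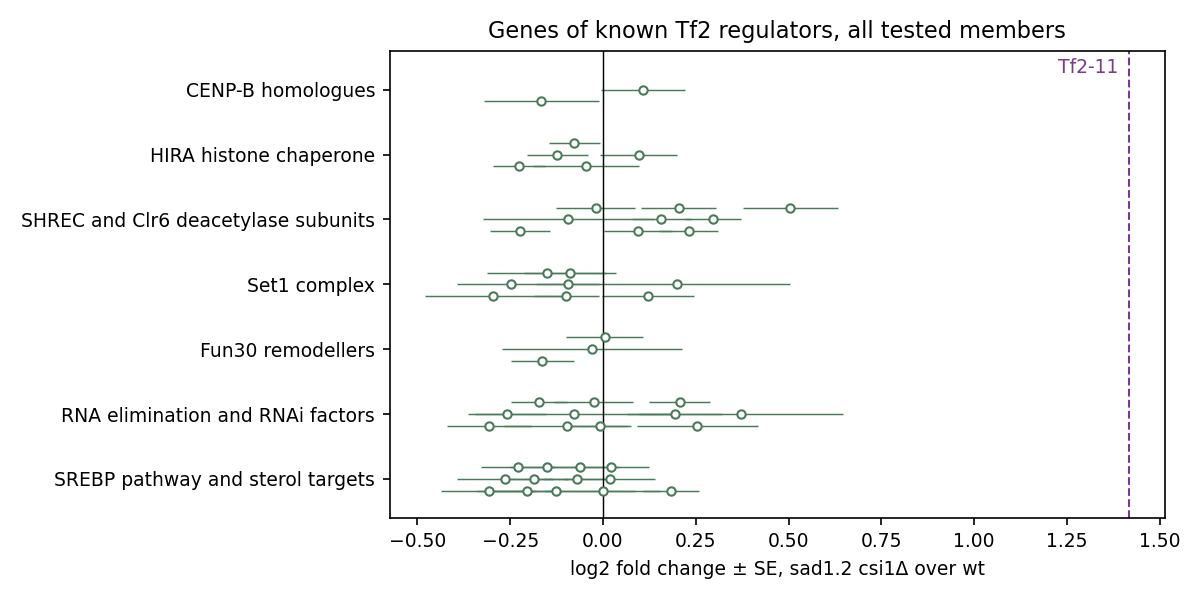
Log2 fold change of sad1.2 csi1Δ over wt with its standard error (horizontal axis, edgeR, 3 libraries per genotype) for the 51 tested genes of 7 lists (vertical axis). The lists hold known Tf2 regulators and, in the SREBP list, also sterol targets. Each open circle is 1 gene, offset within its list to keep the bars apart, and the dashed line is Tf2-11 at 1.42. All 51 lie between −0.31 and 0.50, and none passed in this fit of all 6 libraries.

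Of 4332 other features with a mean of at least 5 CPM, the 5 whose log2 CPM followed the summed Tf2 level most closely over the 6 libraries were the lncRNA SPNCRNA.698 (Pearson r = 0.995), rad54 (0.995), the lncRNA SPNCRNA.667 (0.994), nbs1 (0.994) and SPBC1271.08c (0.994). The gene rad54 encodes a DNA translocase of homologous recombination and nbs1 a subunit of the MRN break repair complex. These r values describe 6 libraries that share their depth and their genotype groups, and 80 features reached 0.95 or more. The gene rad54 had 60.9 ± 6.19 CPM in wt and 80.5 ± 7.34 in the mutant (SD, n = 3 each; log2 fold change 0.40, edgeR adjusted p = 0.101), and nbs1 46.4 ± 3.15 and 61.0 ± 3.82 (0.40, adjusted p = 0.0843). Without wt replicate 2 and mutant replicate 3 rad54, nbs1 and SPNCRNA.667 passed as well (0.0168, 0.0174 and 0.0282), in a fit that called 20.5% of all its features. The 5 were picked for following the Tf2 sum over these libraries, so a like order of libraries came with the choice and is not a further result. SPBC1271.08c had 147, 276 and 124 counts in wt libraries against 1182, 647 and 1167. With all 6 libraries it was the 1 of these 5 that passed (2.29 on the log2 scale, SE 0.388, edgeR adjusted p = 0.0404). It did so in 1 of the 6 fits that leave out a library, the one without wt replicate 2, and its adjusted p was 0.137 and 0.164 without wt replicates 1 and 3, and 0.137, 0.115 and 0.0617 without mutant replicates 1, 2 and 3.

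The authors' deposited table of their own comparison carries almost no Tf2 signal under these identifiers. There, in the authors' deposited table, a base mean of 0 stands for 8 of the 10 copies, Tf2-11 among them, and all 10 are under 1. The authors' deposited table also holds 9 identifiers that start with SPTF and have no row in the count tables, of which 7 are at 0 and SPTF.8 has a base mean of 625, a log2 fold change of 0.57 (standard error 0.161) and an adjusted p of 0.00892. The reference annotation does not describe these identifiers, so they were not assigned to a copy. The count tables and the authors' deposited table share 6943 identifiers, and 25 of those have at least 100 counts over the libraries here and a base mean of 0 there.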

How the data were processed

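For each library the authors deposited raw read counts by annotated transcript. Build ASM294v2 and the tools HISAT2, HTSeq and DESeq2 are named per the submitters' processing notes, but versions, strand setting and the treatment of multiply mapping reads are not given there. A table of their own comparison was deposited too, with base means (a signal averaged over libraries), log2 fold changes, their standard errors (read as a score) and p-values. A further 18 columns of normalized values were not used.

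Counts were tested with edgeR 4.0.16 under R 4.3.3 by quasi-likelihood (robust, TMM, filterByExpr with a minimum count of 10 and a minimum total of 15), genotype the only term, Benjamini-Hochberg adjusted over 4941 features and called under 0.05. CPM are counts over the TMM-scaled library size; log2 CPM used a pseudocount of 0.5 for features other than the Tf2 sum. The fit was tested on simulated data. Identity and stretches found once were counted with Python 3.11.15 and edlib 1.3.9.post1 on ASM294v3, with names and neighbours from its annotation (6846 of 7269 features matched). As its build differs from that of the files, no coordinates or sequences are printed. No library pair agreed within sampling noise (chi-square per degree of freedom 9.96 to 141). Named features are the 10 copies, csi1, sad1, flanking genes called or beside a called copy, called list genes or otherwise the 2 of smallest adjusted p in each list, and the 5 most alike features. The members and lists were chosen with earlier results of these data known. Alternatives were DESeq2 1.42.0, limma 3.58.1 (voom), other scalings and filters, coding genes only, a replicate block and left-out libraries.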

Additional observations from a re-analysis of the deposited data

How the results depend on the processing

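The count of genes called, 119, came to 510 with DESeq2, 76 with a filter of 5 CPM in 3 libraries, 36 among protein-coding genes only and 1025 without wt replicate 2 and mutant replicate 3 together; leaving out 1 library gave 0 to 151 (678 to 1328 at an unadjusted p under 0.05). Tf2 copies called, 1, came to 2 with DESeq2 and 3 without those 2 libraries, and leaving out 1 library gave 0 to 1. Flanking genes called, 1, came to 2 with DESeq2, 0 among protein-coding genes only and 6 without those 2 libraries, and leaving out 1 library gave 0 to 2. The summed Tf2 log2 ratio stayed between 1.19 and 1.53 in all 12 alternatives run for it, one of them (all 13 Tf2 genes) chosen after seeing the data. Replicate numbers did not pair the libraries (correlations of same-numbered deviations 0.44, −0.49 and −0.54). With the replicate block edgeR called 0 genes (845 at an unadjusted p under 0.05), 0 copies and 0 flanking genes, and Tf2-11 kept a log2 fold change of 1.41 at an adjusted p of 0.126. The fold change of fft1, −0.03, changed sign with library size alone (0.0979), limma voom (0.0042), the replicate block (0.0011), without wt replicate 2 (0.26), mutant replicate 1 (0.0057) or mutant replicate 2 (0.0744), and without the 2 libraries (0.0994), in a leave-one-out range of −0.21 to 0.26. The causes were not tested. Depth limits 6 of the 10 copies, which had at most 11 counts in a library.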
